A study of Mus musculus with 8 samples.

Results

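Trpc6, Abcg3, Bpifc, Sema3d and Cd4 are 5 mouse genes that were selected on the RNA-seq values themselves, for their large increases in the libraries titled Hira KO among genes outside the immunoglobulin loci. They are 5 of the 45706 genes in the RNA tables, and all 5 were among the 16258 genes with enough counts to be tested. Because the comparison of genotypes chose them, their levels in it are given as a description, without a test.

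The study measured RNA (RNA-seq) and open chromatin (ATAC-seq, in which a transposase inserts into accessible DNA) in C57BL/6 bone marrow cells sorted as LSK. This gate takes cells that lack lineage markers and carry Sca1 and Kit, and it holds stem cells and multipotent progenitors. The groups are libraries labelled Hira KO, whose genotype is given as a conditional KO of Hira, and libraries labelled WT, with 2 libraries a group in each of the 2 assays. The Cre driver, the ages of the mice, whether mice were pooled and whether libraries came from separate mice are not given in the sources used here. The sex-linked RNA of the 2 RNA libraries labelled WT differed (values below), so these were not repeats of 1 sample; for the other pairs the spread may be technical.

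Hira encodes a histone chaperone that places a replication-independent variant of histone H3 into chromatin. Its own RNA went against the labels. Hira had 24.4 and 23.3 CPM in the libraries labelled Hira KO, against 16.5 and 17.2 CPM in those labelled WT, where CPM are counts scaled to a common library size. Per length of transcript it had 16.9 and 16.85 TPM in labelled Hira KO, against 16.77 and 11.05 TPM in labelled WT. The log2 fold change was 0.50 with an adjusted p of 0.180 by edgeR's quasi-likelihood test with Benjamini-Hochberg adjustment over all genes, which also gave the other adjusted p-values below. A count over the whole gene checks a conditional deletion only in part, since the deleted exons are not given in the sources used here. The deposited data files of all samples also carry, in their names, the opposite genotype from the titles. Every direction below therefore rests on the titles, and the libraries are called by their labels throughout.

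The RNA libraries held 16.6 to 19.8 M expected counts, of which 40.8 to 53.1% were mitochondrial. Replicate 2 of the libraries labelled WT stood apart by sex-linked RNA, with 906 counts of Y-linked Ddx3y and 1470 of Xist, against 1 to 2 and 169234 to 232764 in the other 3. Kit and Ly6a (Sca1), which define the sorted cells, were present in every library, Kit at 96.5 and 70.1 TPM in the libraries labelled Hira KO and at 81.9 and 79.3 TPM in those labelled WT. Of 20 stem cell genes tested, 6 were called higher in labelled Hira KO, among them Angpt1, Meis1, Hlf, Hoxa9 and Ly6a, and 0 lower, beside 1.32% higher and 0.48% lower of all 16258 genes tested. The summed level of the 20 was 688 and 608 TPM in labelled Hira KO, against 359 and 303 TPM in labelled WT. In bulk RNA, more cells of a type cannot be told apart from more RNA per cell. The part of these differences in the results for the 5 genes was not tested.

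The 5 genes belong to unrelated families. TRPC6 is a cation channel of the plasma membrane that is opened by diacylglycerol downstream of phospholipase C and lets calcium enter. ABCG3 belongs to the G subfamily of ATP-binding cassette transporters, a rodent relative of the multidrug transporter ABCG2, and BPIFC belongs to a family of lipid-binding proteins that includes the bactericidal protein BPI of neutrophils. SEMA3D is a secreted guidance cue read by neuropilin and plexin receptors, and CD4 is the co-receptor for MHC class II on helper T cells that is also found on some mouse dendritic cells and, at a low level, on early marrow progenitors.

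The promoters of 4 of the 5 genes are shown, since the promoter reference used here had no entry for Cd4. Open chromatin was listed at or just beside each of these 4 starts in at least 1 library. Each runs from 250 bases before to 50 bases after the transcript start, in the direction of transcription (RefSeq, GRCm38.p6), with CG dinucleotides in capitals. Trpc6 lies on the plus strand at chr9:8543892-8544191, Abcg3 on the minus strand at chr5:104982668-104982967, Bpifc on the minus strand at chr10:86011811-86012110 and Sema3d on the plus strand at chr5:12382916-12383215.
Trpc6: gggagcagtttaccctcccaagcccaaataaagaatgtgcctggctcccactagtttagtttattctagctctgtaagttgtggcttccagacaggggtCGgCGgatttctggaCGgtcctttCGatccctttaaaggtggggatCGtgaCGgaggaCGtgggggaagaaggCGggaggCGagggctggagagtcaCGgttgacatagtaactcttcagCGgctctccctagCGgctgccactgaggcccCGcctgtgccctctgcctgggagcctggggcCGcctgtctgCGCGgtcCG
Abcg3: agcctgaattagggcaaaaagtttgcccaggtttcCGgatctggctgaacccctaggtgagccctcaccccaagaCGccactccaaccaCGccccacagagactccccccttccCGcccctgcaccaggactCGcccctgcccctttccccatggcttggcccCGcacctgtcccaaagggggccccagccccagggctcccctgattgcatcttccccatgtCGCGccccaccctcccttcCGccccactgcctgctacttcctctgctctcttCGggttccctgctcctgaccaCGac
Bpifc: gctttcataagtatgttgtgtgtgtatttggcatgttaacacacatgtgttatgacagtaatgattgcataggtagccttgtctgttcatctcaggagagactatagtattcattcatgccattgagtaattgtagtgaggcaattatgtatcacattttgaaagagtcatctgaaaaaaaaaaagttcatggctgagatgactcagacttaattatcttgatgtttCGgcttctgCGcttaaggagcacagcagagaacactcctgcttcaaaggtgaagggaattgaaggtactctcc
Sema3d: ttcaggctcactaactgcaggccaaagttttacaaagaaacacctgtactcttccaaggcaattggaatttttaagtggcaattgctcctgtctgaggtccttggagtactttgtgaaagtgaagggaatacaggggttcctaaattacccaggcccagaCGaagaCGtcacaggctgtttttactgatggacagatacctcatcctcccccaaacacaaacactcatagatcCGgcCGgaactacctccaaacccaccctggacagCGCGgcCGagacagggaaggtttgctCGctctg

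CG dinucleotides numbered 17 in the Trpc6 promoter, 11 in Abcg3, 8 in Sema3d and 2 in Bpifc, against a median of 7 over 32851 RefSeq promoters of the same length. Among those, the count of Trpc6 stood at percentile 68.6, that of Abcg3 at 58.6, that of Sema3d at 51.4 and that of Bpifc at 14.1. The GC content was 60.0% in Trpc6, 65.3% in Abcg3, 49.7% in Sema3d and 38.7% in Bpifc.

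The windows were searched on both strands for 9 motifs, namely the TATA box TATAAA, the ETS core AGGAAG, the GATA site AGATAA, the RUNX site TGTGGT, the E-box CANNTG, the AP-1 site TGANTCA, the MEIS site TGACAG, an interferon element (GAAA, any 2 bases and GAAA) and the CCAAT box. No motif occurred in all 4 promoters. Bpifc held 1 AP-1 match, found in 7.81% of all promoters, 1 GATA match, in 11.2%, 1 MEIS match, in 19.2%, and 3 E-boxes, in 72.3%. Abcg3 held 1 ETS match, in 35.4% of promoters, and 1 E-box. Sema3d held 1 CCAAT box, in 37.4%, and 3 E-boxes. Trpc6 held none of the 9. The TATA, RUNX and interferon strings, which 13.6%, 16.8% and 3.44% of promoters hold, were in none of these windows. Neighbouring E-boxes in Bpifc overlap each other, and such matches describe letters only.

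Trpc6 (ENSMUSG00000031997, chr9:8543867-8680752 in GRCm38.p6) was counted on 1 transcript model. It had 272 and 354 counts in labelled Hira KO, against 59 and 19 counts in labelled WT. These were 14.1 and 21.3 CPM in labelled Hira KO, against 3.12 and 1.04 CPM in labelled WT. The groups did not overlap, and the lowest library labelled Hira KO was 4.51-fold above the highest labelled WT. The mean was 17.7 ± 5.08 CPM in labelled Hira KO and 2.08 ± 1.47 CPM in labelled WT (SD, n = 2 each), with a log2 fold change of 3.08. Of the 5 genes Trpc6 had the widest spread within labelled WT, 3.0-fold between its 2 libraries. Without replicate 2 of labelled WT the log2 fold change was 2.48, and without replicate 1 of labelled WT it was 4.06.

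Abcg3 (ENSMUSG00000029299, chr5:104935057-104982811) had 230 and 412 counts in labelled Hira KO, against 46 and 42 counts in labelled WT. On the CPM scale these were 11.9 and 24.8 in labelled Hira KO and 2.43 and 2.30 in labelled WT. Here the spread lay on the other side: the 2 libraries labelled Hira KO differed 2.08-fold and those labelled WT 1.06-fold. The lowest library labelled Hira KO was still 4.89-fold above the highest labelled WT. The mean was 18.3 ± 9.08 CPM in labelled Hira KO and 2.37 ± 0.0969 CPM in labelled WT (SD, n = 2 each), and the log2 fold change was 2.95.

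Bpifc (ENSMUSG00000050108, chr10:85959691-86011860) was the most abundant of the 5. It had 526.65 and 786.02 expected counts in labelled Hira KO, against 73.11 and 135.55 in labelled WT. These were 27.3 and 47.2 CPM in labelled Hira KO, against 3.86 and 7.44 CPM in labelled WT. In both groups replicate 2 was the higher library, 1.73-fold in labelled Hira KO and 1.93-fold in labelled WT, and the groups stayed 3.67-fold apart at their nearest libraries. The mean was 37.3 ± 14.1 CPM in labelled Hira KO and 5.65 ± 2.53 CPM in labelled WT (SD, n = 2 each), and the log2 fold change was 2.72. Its counts were not whole, as the authors' estimates can divide a read among features, with a posterior SD of at most 2.03 reads in a library.

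Sema3d (ENSMUSG00000040254, chr5:12383161-12588953) had the largest difference of the 5. It had 271 and 204 counts in labelled Hira KO, against 13 and 9 counts in labelled WT. The levels were 14.0 and 12.3 CPM in labelled Hira KO, against 0.688 and 0.492 CPM in labelled WT, and the nearest libraries of the groups were 17.8-fold apart. The mean was 13.2 ± 1.26 CPM in labelled Hira KO and 0.590 ± 0.138 CPM in labelled WT (SD, n = 2 each), with a log2 fold change of 4.46. The transcript length that the authors' estimates gave Sema3d, over its 5 transcript models, was 4571 and 4909 bases in labelled Hira KO and 3612 and 5738 bases in labelled WT. In labelled WT these lengths rest on the few counts above.

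Cd4 (ENSMUSG00000023274, chr6:124864693-124888247) had the smallest difference of the 5 and the closest replicates. It had 198 and 179 counts in labelled Hira KO, against 58 and 56 in labelled WT. These were 10.3 and 10.8 CPM in labelled Hira KO, against 3.07 and 3.06 CPM in labelled WT, with the groups 3.34-fold apart at their nearest libraries. The mean was 10.5 ± 0.353 CPM in labelled Hira KO and 3.07 ± 0.00441 CPM in labelled WT (SD, n = 2 each), and the log2 fold change was 1.77. Without replicate 2 of labelled WT, the library that stood apart by sex-linked RNA, it was 1.76, and in that fit it was 2.89 for Abcg3, 3.25 for Bpifc and 4.23 for Sema3d.

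**Figure D1:**
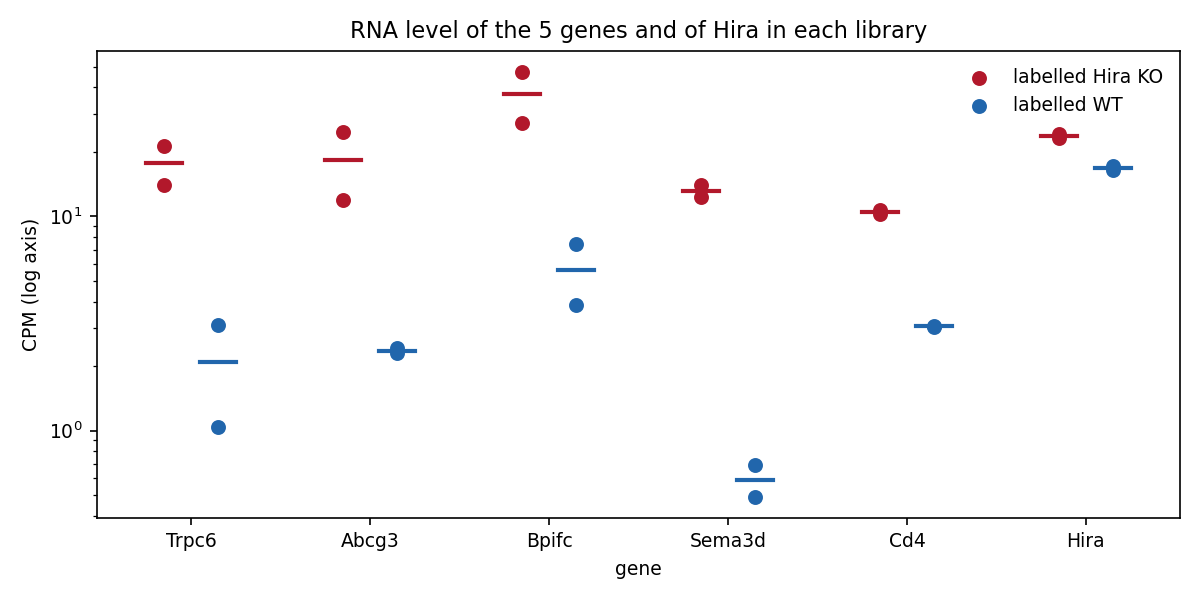
CPM (log axis) of Trpc6, Abcg3, Bpifc, Sema3d, Cd4 and Hira in each RNA library; points are libraries, bars the mean of 2, red labelled Hira KO and blue labelled WT. For each of the 5 genes both red points lie above both blue points, from 3.34-fold apart in Cd4 to 17.8-fold apart in Sema3d, and Hira is also higher in the libraries labelled Hira KO.

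All 5 were called higher by the test that chose them, where 1.32% of the 16258 genes were called higher and 0.48% lower; nothing is read from that count. Of the 5, 0 were called without replicate 1 of labelled WT and 0 without replicate 2 of labelled WT. With the replicate number as a block 4 were called, without Trpc6, and with limma at either pseudocount 4, without Cd4. The shares over all genes are 214 genes higher and 78 lower, which became 3 and 1 without replicate 1 of labelled WT and 1 and 1 without replicate 2 of labelled WT. Groups without overlap in this direction were themselves common, at 28.3% of tested genes. The 5 genes took ranks 6 (Sema3d), 13 (Trpc6), 15 (Abcg3), 19 (Bpifc) and 55 (Cd4) by log2 fold change among 157 named genes called higher outside the immunoglobulin loci. Cd4 is thus not among the very largest rises. The 5 genes above Sema3d, Shisa9, Il18, Mrc2, Rian and Lama4, averaged a log2 CPM of 0.43 to 2.03, below every one of the 5 described here, of which Cd4 averaged 2.78 and Sema3d 2.80.

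At an average log2 CPM of at least 3, 127 such genes remained and Trpc6, Abcg3 and Bpifc ranked 1, 2 and 4. Tnip3, an inhibitor of NF-kappaB signalling, ranked 3 with a log2 fold change of 2.78. Below them were Gbp8 with 2.58, Ifi44 with 2.57, Scube3 with 2.52, Ier2 with 2.43 and Clic5 with 2.39. Trpc6, at 3.32, and Abcg3, at 3.38, averaged just above that minimum, and Sema3d and Cd4 just below it.

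**Figure D2:**
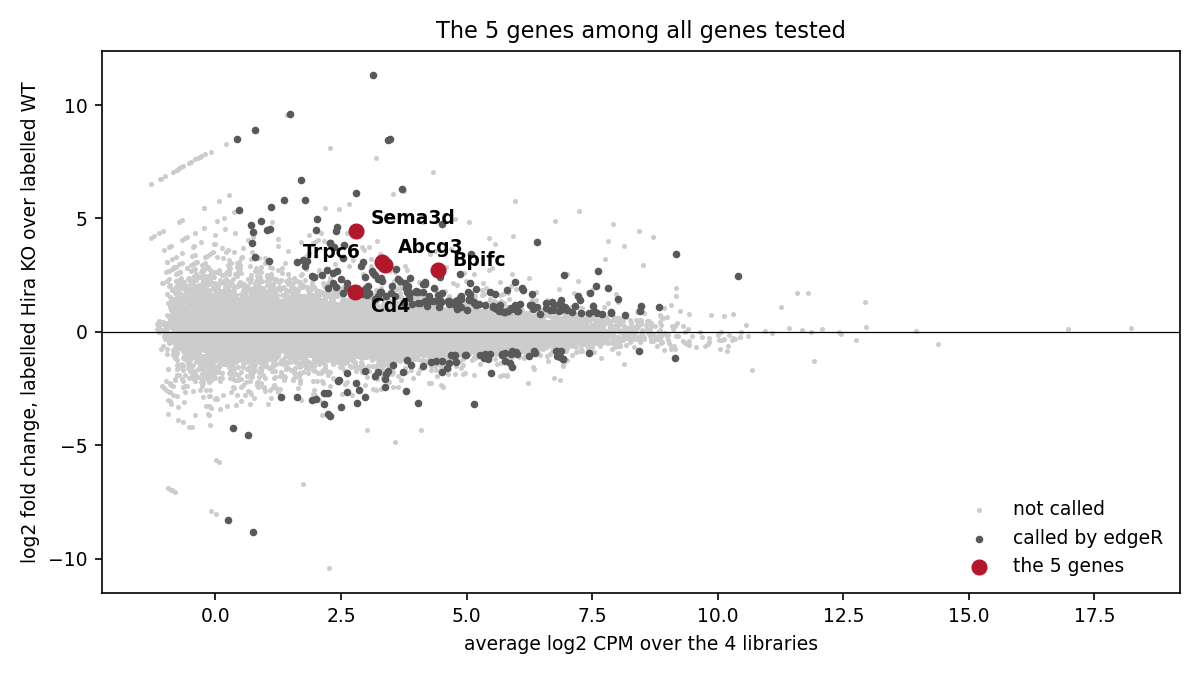
Log2 fold change of labelled Hira KO over labelled WT against the average log2 CPM for every tested gene, grey where not called, dark where called by edgeR, red for the 5 genes. Sema3d, at 4.46, and Cd4, at 1.77, bound the 5, which sit between an average log2 CPM of 2.78 and 4.43.

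Set per length in TPM, which lets genes be compared with each other, the order in labelled Hira KO was Bpifc, Abcg3, Trpc6, Cd4 and Sema3d. Bpifc had 13.85 and 18.46 TPM in labelled Hira KO, against 2.03 and 2.97 TPM in labelled WT. Abcg3 had 5.48 and 8.38 TPM in labelled Hira KO, against 1.18 and 0.90 TPM in labelled WT. Trpc6 had 6.35 and 7.12 TPM in labelled Hira KO, against 1.46 and 0.37 TPM in labelled WT. Abcg3 and Trpc6 overlapped each other in both groups, so their order is not resolved. Cd4 had 4.74 and 3.77 TPM in labelled Hira KO, against 1.39 and 1.08 TPM in labelled WT. Sema3d had 4.09 and 2.46 TPM in labelled Hira KO, against 0.27 and 0.09 TPM in labelled WT. Cd4 and Sema3d overlapped in labelled Hira KO but not in labelled WT, where Sema3d was the lowest of the 5. Among all tested genes the mean TPM of Bpifc stood at percentile 77.3 in labelled Hira KO and 32.7 in labelled WT, that of Abcg3 at 55.4 in labelled Hira KO and 18.7 in labelled WT, and that of Trpc6 at 54.6 in labelled Hira KO and 17.0 in labelled WT. Cd4 stood at percentile 42.8 in labelled Hira KO and 21.2 in labelled WT, and Sema3d at 36.4 in labelled Hira KO and 2.71 in labelled WT.

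The 5 genes differed in how they varied from library to library. Likeness of pattern was measured as the Euclidean distance between log2 CPM values centred on each gene's mean over the 4 libraries. On that scale 0 is the same pattern. A small count was added before the log, which shrinks the differences of genes with few counts. A short distance to such a gene therefore need not mean a like fold change. The closest pair among the 5 was Abcg3 and Bpifc at a distance of 0.74, and the farthest was Sema3d and Cd4 at 2.54. The difference between the groups enters this distance, so it in part restates the fold changes by which the 5 were chosen. The log2 fold changes were 2.95 and 2.72 in the closest pair and 4.46 and 1.77 in the farthest. Among 12701 named genes, Bpifc was nearest to Tnip3 at 0.16, which had 14.7 and 27.3 CPM in labelled Hira KO, against 2.28 and 3.83 CPM in labelled WT. Its next nearest were Ccn4 and Asb4. Trpc6 was nearest to Sfrp1 at 0.257, Slc35d3 at 0.499 and Smoc1 at 0.514. Of these, Slc35d3 was the one called, with 10.3 and 15.6 CPM in labelled Hira KO, against 2.28 and 1.15 CPM in labelled WT. Abcg3 was nearest to Rasl12 at 0.217, Slc17a8 at 0.270 and Dyx1c1 at 0.302, none of them called and all below 3 CPM in every library. Dyx1c1, at 0 CPM in both libraries labelled WT, had a log2 fold change of 6.87, beside 2.95 for Abcg3. Sema3d was nearest to Il18 at 0.410, Hist1h2ad at 0.471 and Rian at 0.837. Hist1h2ad, also at 0 CPM in both libraries labelled WT, had a log2 fold change of 7.94, beside 4.46 for Sema3d. Il18 had 2.75 and 2.22 CPM in labelled Hira KO, against 0.0529 and 0.0547 CPM in labelled WT. Cd4 was nearest to Triqk and Mamdc2, each at 0.079, and to Basp1 at 0.132. Mamdc2 had 5.34 and 5.53 CPM in labelled Hira KO, against 1.64 and 1.64 CPM in labelled WT, and was not called.

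The families and pathways of the 5 genes were counted in 7 lists that held 122 tested genes besides the 5. Of these edgeR called 4 higher and 1 lower in labelled Hira KO. That is 4.10% in either direction, beside 1.32% higher and 0.48% lower over all genes. The median log2 fold change of these genes was 0.09, beside 0.01 over all tested genes. All 5 calls were lost when either library labelled WT was left out.

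Besides Trpc6, 12 TRP channels were tested and 0 were called in either direction, with 4 higher and 0 lower at an unadjusted p under 0.05. Over all tested genes 12.2% were higher and 10.6% lower at that p. The median log2 fold change of the 12 was 0.62. The gene with the largest value, named after its values were seen, was Mcoln3, a channel of endosomes and lysosomes. Mcoln3 had 56 and 32 counts in labelled Hira KO, against 4 and 5 counts in labelled WT. The groups did not overlap, and the gene was not called (log2 fold change 3.28, adjusted p = 0.0605 by edgeR). Trpm7, a channel fused to a kinase and the most abundant of the list, had 65.1 and 43.3 TPM in labelled Hira KO, against 66.3 and 44.4 TPM in labelled WT. Mcoln1, a lysosomal channel, had 14.6 and 12.4 TPM in labelled Hira KO, against 15.1 and 9.27 TPM in labelled WT. In both genes the 2 groups overlapped. Trpc7, the close relative of Trpc6, was listed at 0 in every library.

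Of 32 genes of calcium entry and phospholipase C signalling, a list drawn up around TRPC6, 4 were called higher and 0 lower. Over all genes 1.32% were called higher and 0.48% lower. The list had a median log2 fold change of 0.07. Plcg1, the phospholipase C activated by tyrosine kinases, had 46.0 and 54.9 CPM in labelled Hira KO, against 21.1 and 23.2 CPM in labelled WT (log2 fold change 1.19, adjusted p = 0.0349). Plcb2, the phospholipase C activated by G proteins, had 132 and 196 CPM in labelled Hira KO, against 78.1 and 65.4 CPM in labelled WT (log2 fold change 1.20, adjusted p = 0.0487). Both phospholipases were higher in each library labelled Hira KO than in either labelled WT. Camk2d, a calmodulin-dependent kinase, had 62.2 and 68.3 CPM in labelled Hira KO, against 33.6 and 35.3 CPM in labelled WT (log2 fold change 0.92, adjusted p = 0.0427). Nfat5, a transcription factor of the NFAT family, had 282 and 321 CPM in labelled Hira KO, against 162 and 174 CPM in labelled WT (log2 fold change 0.85, adjusted p = 0.0427). In each of the 4 called genes both libraries labelled Hira KO were above both labelled WT, by at least 1.62-fold. Genes called higher with 2 libraries a group tend to have this order, so it adds nothing to the calls. Of all tested genes 28.3% had it. The adjusted p of Plcg1 ran up to 0.408, of Camk2d to 0.461, of Nfat5 to 0.465 and of Plcb2 to 0.395 over the alternative fits, and none of the 4 was called on TPM with limma. The other NFAT genes of the list, named after their values were seen, were not called. Their log2 fold changes were 0.57 for Nfatc1, 1.09 for Nfatc2, -0.20 for Nfatc3 and 1.21 for Nfatc4. Calm2, the most abundant gene of the list, had 217 and 151 TPM in labelled Hira KO, against 184 and 126 TPM in labelled WT.

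Of 12 ABCG and multidrug transporters besides Abcg3, 0 were called, with 3 higher and 2 lower at an unadjusted p under 0.05 (12.2% and 10.6% over all genes) and a median log2 fold change of 0.11. Abcg2, the transporter that gives stem cells their dye efflux, had 11.2 and 6.96 TPM in labelled Hira KO, against 11.0 and 8.71 TPM in labelled WT. The groups overlapped, and its log2 fold change was 0.05 beside 2.95 for Abcg3. Abcc1 had 25.8 and 22.8 TPM in labelled Hira KO, against 20.9 and 13.1 TPM in labelled WT, and was not called (log2 fold change 0.62).

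Of 9 genes of the BPI fold family and of lipopolysaccharide binding besides Bpifc, 0 were called in either direction, and 0 passed an unadjusted p under 0.05 either way. Most relatives of Bpifc could not be compared, since 8 Bpifa and Bpifb genes were listed at 0 in every library. Lbp, the lipopolysaccharide-binding protein, had 19.5 and 19.2 TPM in labelled Hira KO, against 21.7 and 8.68 TPM in labelled WT. Ly96, which holds lipopolysaccharide on the receptor TLR4, had 21.5 and 6.47 TPM in labelled Hira KO, against 9.66 and 12.8 TPM in labelled WT.

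Of 25 semaphorins and their receptors besides Sema3d, 0 were called higher and 1 lower, with a median log2 fold change of -0.17. The gene called lower was Nrp1, a neuropilin that serves as a receptor for class 3 semaphorins. Nrp1 had 2.54 and 1.5 CPM in labelled Hira KO, against 12.9 and 11.5 CPM in labelled WT (log2 fold change -2.58, adjusted p = 0.0336). The ligand Sema3d, chosen for its rise, was the higher in labelled Hira KO and this receptor the lower there. Other receptors did not share this fall, or did so uncalled, and those that follow were named after their values were seen. The neuropilin Nrp2 had 5.78 and 4.80 TPM in labelled Hira KO, against 3.79 and 5.06 TPM in labelled WT, and the groups overlapped. The plexin Plxna4 had a log2 fold change of 1.63 and Plxna1 one of -0.96, neither called. The adjusted p of Nrp1 ran up to 0.322 over the alternatives. Endothelial and dendritic cells are known to carry Nrp1, and 3 of 9 tested endothelial markers, Cdh5, Flt4 and Stab2, were called lower, beside 0.48% of all genes. The endothelial markers lay on both sides: 4 of the 9 had a log2 fold change above 0, among them Emcn at a log2 fold change of 1.07 and Tie1 at 1.19, neither called. The 13 dendritic cell markers summed to 375 and 335 TPM in labelled Hira KO, against 728 and 429 TPM in labelled WT. Of these, 1 was called higher, Flt3, and 0 lower (1.32% and 0.48% over all genes). At an unadjusted p under 0.05, 2 were higher and 8 lower (12.2% and 10.6% over all genes). Their median log2 fold change was -0.89. The endothelial list summed to 59.4 and 48.7 TPM in labelled Hira KO, against 65.4 and 42.0 TPM in labelled WT. The part of these cells in the value of Nrp1 was not tested. Plxnc1 and Sema4d, the most abundant of the list, had log2 fold changes of -0.14 and -0.22 and were not called.

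No T cell marker was called beside Cd4. Of 15 T cell markers 12 were tested and 0 were called, with 2 higher and 0 lower at an unadjusted p under 0.05 (12.2% and 10.6% over all genes), and the list summed to 31.8 and 48.4 TPM in labelled Hira KO, against 47.2 and 28.0 TPM in labelled WT. These sums overlapped between the groups where Cd4 did not. Cd3e, a defining chain of the T cell receptor complex, had 9 and 27 counts in labelled Hira KO, against 33 and 23 counts in labelled WT. The log2 fold change was above 0 in 7 of the 12, with a median of 0.16. The 2 higher at the unadjusted p were Cd28 and Trbc1, with log2 fold changes of 2.72 and 1.71. Cd28 had 160 and 669 counts in labelled Hira KO, against 96 and 41 counts in labelled WT. In both genes the groups did not overlap. Of 17 genes of T cell receptor signalling besides Cd4, 0 were called, with 4 higher and 0 lower at an unadjusted p under 0.05 (again beside 12.2% and 10.6%) and a median log2 fold change of 0.37. Ptprc, which encodes the pan-leukocyte phosphatase CD45, had 195 and 184 TPM in labelled Hira KO, against 175 and 130 TPM in labelled WT, and Lcp2 had 34.0 and 28.5 TPM in labelled Hira KO, against 31.7 and 18.4 TPM in labelled WT. Of 15 transcription factors and chromatin proteins known to regulate Cd4, 0 were called, with 2 higher and 4 lower at an unadjusted p under 0.05 (beside the same 12.2% and 10.6%) and a median of -0.09. Myb, the most abundant of them, had a log2 fold change of -0.42 and Ikzf1 one of -0.09.

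**Figure D3:**
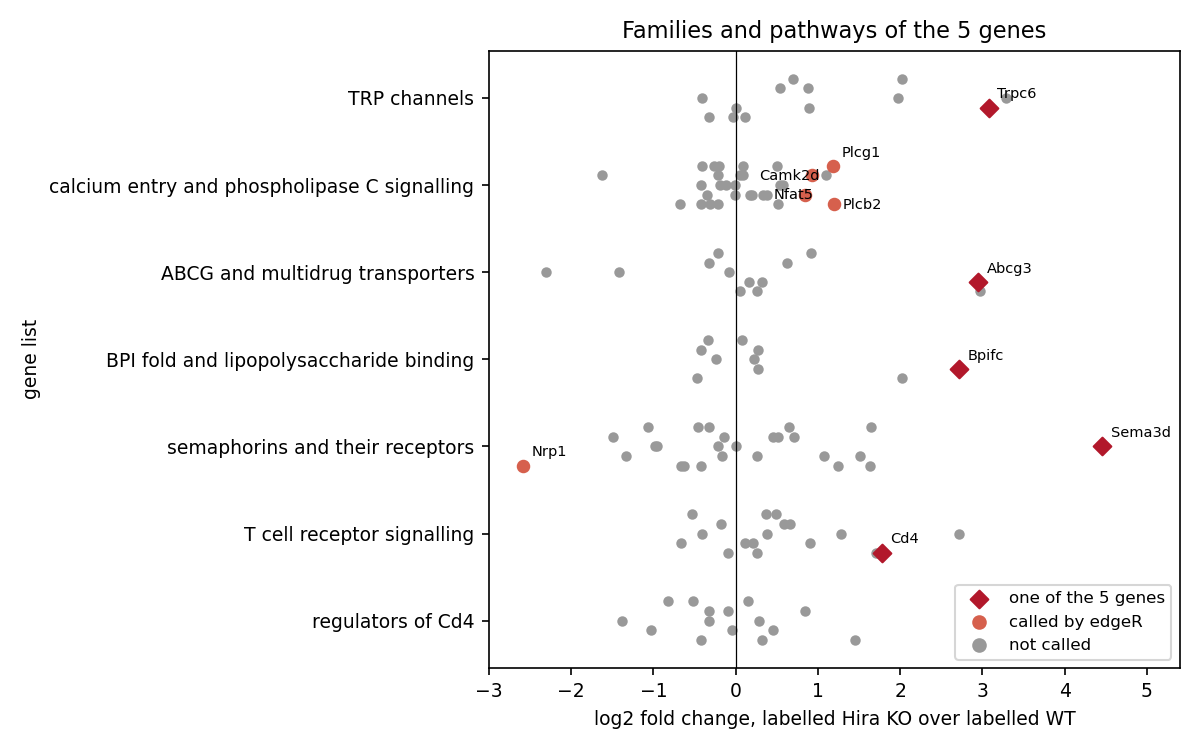
Log2 fold change of labelled Hira KO over labelled WT (x axis) for the tested genes of 7 lists (y axis); red diamonds are the 5 genes, orange points other called genes, grey points genes not called, and the offset within a row only separates points. The 4 orange points Plcg1, Plcb2, Camk2d and Nfat5, lie right of 0 in the calcium list and 1, Nrp1, lies left of 0 in the semaphorin list.

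Position in the genome was not used to choose the 5 genes. Within 250 kb of their gene bodies lay 33 other tested genes, of which 2 were called higher and 0 lower, with a median log2 fold change of 0.13, beside 1.32% called higher over all genes. Both called neighbours lay beside Abcg3 and encode guanylate-binding proteins, a family of interferon-induced GTPases. Gbp8, 29.7 kb away, had 11.5 and 18.5 CPM in labelled Hira KO, against 3.18 and 1.81 CPM in labelled WT (log2 fold change 2.58, adjusted p = 0.0349). Gbp9, 93.7 kb away, had 17.7 and 31.7 CPM in labelled Hira KO, against 7.73 and 6.29 CPM in labelled WT (log2 fold change 1.81, adjusted p = 0.0474). Both calls were lost without either library labelled WT, with adjusted p-values up to 0.287 for Gbp8 and 0.395 for Gbp9 over the alternatives, and Gbp9 was also not called on TPM with limma. The next genes of the cluster were not called: Gbp4 had 18.4 and 52.4 CPM in labelled Hira KO, against 6.78 and 3.88 CPM in labelled WT (adjusted p = 0.0947), and Gbp10 had 0.881 and 2.89 CPM in labelled Hira KO, against 0.582 and 0 CPM in labelled WT. Both were named after their values were seen. These genes are close copies of each other, so the division of reads among them is uncertain. On the other side of Abcg3, Zfp951, 74.9 kb away, had 34.0 and 21.6 CPM in labelled Hira KO, against 24.1 and 25.0 CPM in labelled WT, and the groups overlapped.

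Trpc6 had 1 tested neighbour within 250 kb, Pgr, which encodes the progesterone receptor and lies 218 kb away. Pgr had 67.4 and 97.7 CPM in labelled Hira KO, against 7.30 and 1.91 CPM in labelled WT. Its libraries stood in the same order as those of Trpc6, highest in replicate 2 of labelled Hira KO and lowest in replicate 2 of labelled WT. The log2 fold change was 4.16, larger than that of Trpc6, and it was not called (adjusted p = 0.0734). It was called in 4 of 12 alternative fits, with adjusted p-values of 5.06e-13 to 0.369. On the other side 1700128F08Rik, 302 kb away, had a log2 fold change of 0.68 and was not called.

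Cd4 had 22 tested neighbours with a median log2 fold change of -0.11 and 0 called. The genes on either side of it had the larger values: P3h3, a prolyl hydroxylase 6.95 kb away, had 8.96 and 6.37 CPM in labelled Hira KO, against 2.96 and 2.08 CPM in labelled WT (log2 fold change 1.60, adjusted p = 0.0716). Lag3, a relative of Cd4 that also binds MHC class II and lies 16.1 kb away, had 2.49 and 2.95 CPM in labelled Hira KO, against 0.423 and 0.766 CPM in labelled WT (log2 fold change 2.18, adjusted p = 0.0956). In both genes the groups did not overlap. P3h3 was called in 3 of 12 alternatives and Lag3 in 2 of 11.

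Bpifc had 5 tested neighbours with 0 called and a median log2 fold change of 0.01. Rtcb, a tRNA ligase 1.90 kb from its end, had 25.3 and 23.8 CPM in labelled Hira KO, against 29.5 and 27.5 CPM in labelled WT (log2 fold change -0.21). Fbxo7, 8.59 kb from its start, had 27.7 and 50.8 CPM in labelled Hira KO, against 25.8 and 23.1 CPM in labelled WT (log2 fold change 0.68, adjusted p = 0.224). Neither was called.

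Sema3d had 0 tested neighbours within 250 kb. The nearest tested gene on one side was 1700003C15Rik, 614 kb away, with 5.85 and 6.43 CPM in labelled Hira KO, against 0.688 and 0.711 CPM in labelled WT. It rose by a log2 fold change of 3.12 (adjusted p = 0.0332), a call that was lost without either library labelled WT. On the other side Gm6641, 478 kb away, had a log2 fold change of 0.60 and was not called.

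**Figure D4:**
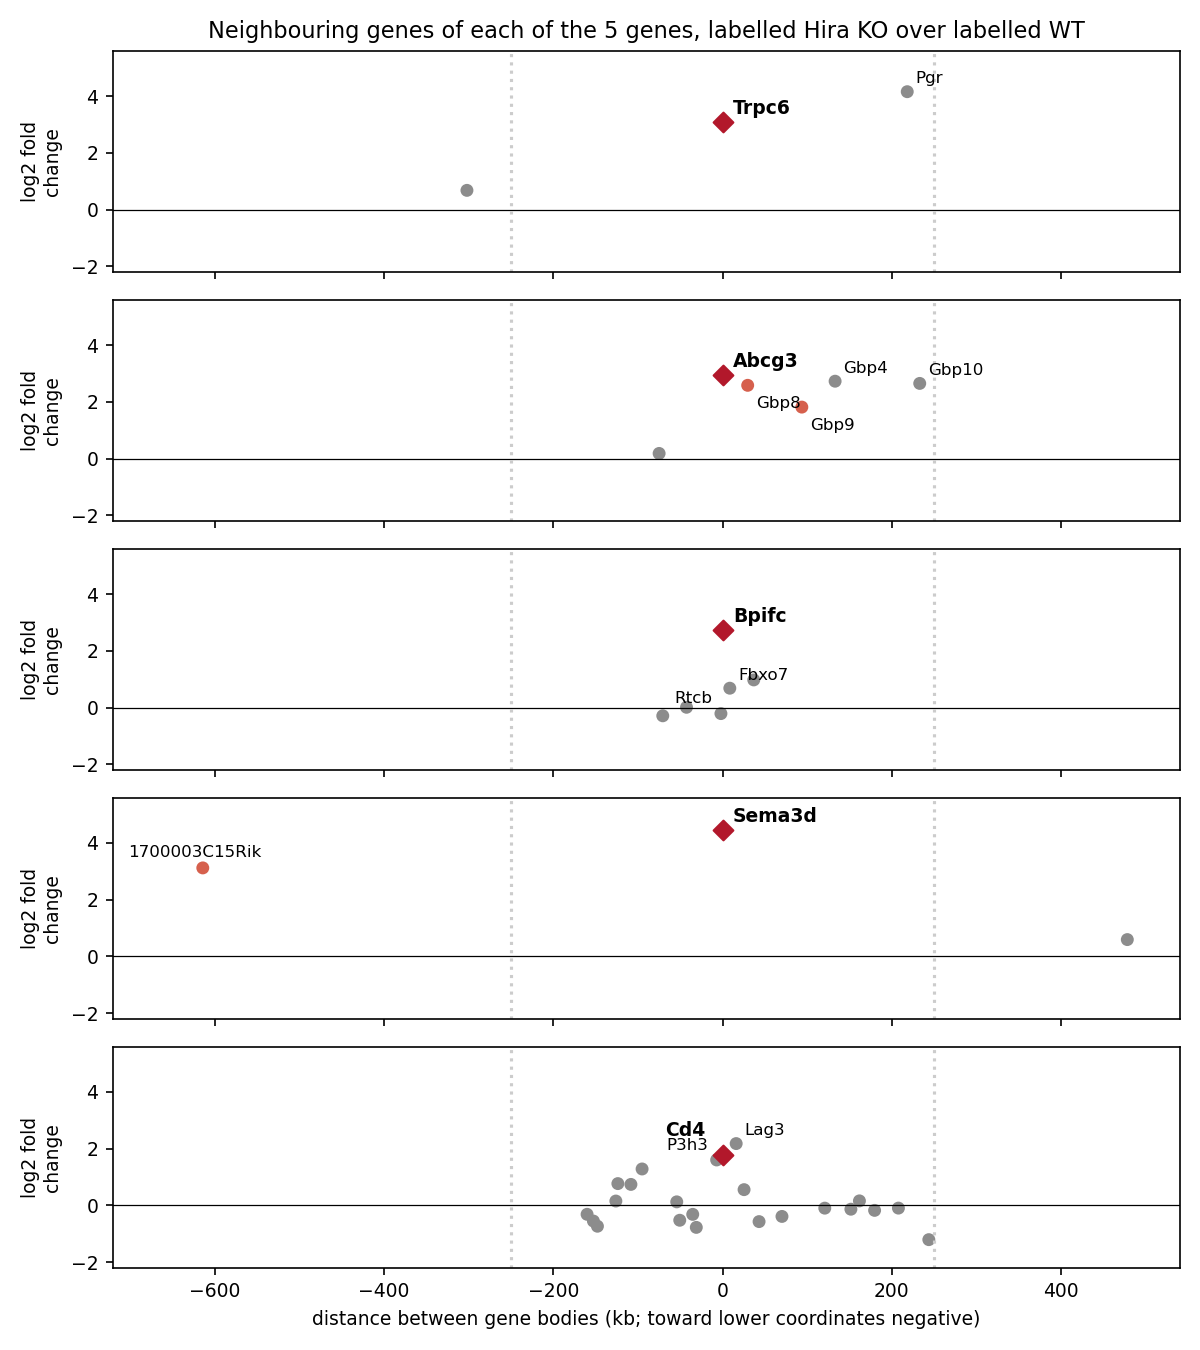
Log2 fold change of labelled Hira KO over labelled WT (y axis) against the distance between gene bodies (x axis, kb) for tested neighbours of each of the 5 genes; diamonds are the 5 genes, orange points called neighbours, grey points neighbours not called, and dotted lines mark 250 kb. Gbp8 and Gbp9 are the called neighbours inside that window, and 1700003C15Rik is called outside it.

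Chromatin was measured in separate libraries. The authors' peak lists held 106912 and 83441 lines in labelled Hira KO, against 97647 and 74189 lines in labelled WT. Mitochondrial peaks were left out, and of lines with the same coordinates the one with the highest fold enrichment was kept. This left 92839 and 73715 peaks in labelled Hira KO, against 79565 and 63422 peaks in labelled WT, which merged into 112479 regions. Of these, 5.64% were listed in both libraries labelled Hira KO and in neither labelled WT, 2.77% the other way round, and 40.7% in all 4. The fold enrichment of a peak is the authors' value against the local background, and no test between lists was made.

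Within 10 kb of the 5 gene bodies lay 25 regions. None was listed in the pair labelled Hira KO alone and none in the pair labelled WT alone. Among 13493 tested genes with any region in that distance, 23.4% had at least 1 region of the pair labelled Hira KO and 17.7% at least 1 of the pair labelled WT, and 0 of the 5 genes had either. Of the 25 regions 10 were listed in all 4 libraries and 15 in other combinations. By library, 23 and 12 were listed in labelled Hira KO, against 17 and 10 in labelled WT, an order that is also that of the list lengths. In 4 of the 10 shared regions both fold enrichments of labelled Hira KO were above both of labelled WT, in 0 they were below, and in 6 the groups overlapped. Of the 45779 regions shared by all 4 libraries over the genome, 24.9% were above in this way and 17.7% below.

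Abcg3 had 5 regions, 3 of them in all 4 libraries and the first 2 below higher in both libraries labelled Hira KO. The strongest, inside the gene at chr5:104958021-104958858 and 24.3 kb from the start, had fold enrichments of 28.0 and 34.0 in labelled Hira KO, against 12.5 and 12.8 in labelled WT. A second, at chr5:104978913-104979634 and 3.44 kb from the start, had 14.0 and 11.7 in labelled Hira KO, against 5.77 and 5.25 in labelled WT. In both the groups did not overlap. The region over the promoter printed above, chr5:104982481-104982972, had 11.2 and 5.49 in labelled Hira KO, against 5.77 and 3.61 in labelled WT, and there the groups overlapped. Ranks within each list of the strongest region were percentiles 88.6 and 89.1 in labelled Hira KO and 71.9 and 69.8 in labelled WT, in lists of different lengths.

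Sema3d had a region just inside its start, chr5:12383303-12383728, listed in all 4 libraries. Its fold enrichments were 6.99 and 7.89 in labelled Hira KO, against 3.46 and 3.94 in labelled WT, and the groups did not overlap. With peaks of -log10 q of at least 10 alone, this was the 1 region listed in both libraries labelled Hira KO and in neither labelled WT. A distal region at chr5:12562192-12562554, 179 kb into the gene, had 12.1 and 4.80 in labelled Hira KO, against 12.5 and 7.22 in labelled WT, so the groups overlapped there.

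Trpc6 had 3 regions, each listed in 1 library. The one over its promoter, chr9:8543963-8544317, was listed in replicate 1 of labelled Hira KO with a fold enrichment of 4.43, at percentile 26.3 of its list. The one 1.27 kb into the gene was listed in replicate 2 of labelled Hira KO with 5.49. The third, 48.6 kb into the gene, was listed in replicate 1 of labelled WT with 2.69, at percentile 1.32. No region near Trpc6 was thus shared by both libraries of a group, and both values near its start were below the medians of their lists, 6.53 and 7.55.

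Bpifc had 8 regions, and the strong ones were flanking and alike in both groups. The region chr10:86021441-86023595, 10.7 kb before the start and at the nearby gene Fbxo7, had fold enrichments of 66.7 and 65.5 in labelled Hira KO, against 83.1 and 56.5 in labelled WT. The region chr10:85956833-85958049, which overlaps Rtcb, had 42.4 and 38.4 in labelled Hira KO, against 44.8 and 40.05 in labelled WT. A weaker region inside the gene, chr10:85967915-85968427, had 8.62 and 6.18 in labelled Hira KO, against 4.81 and 5.91 in labelled WT, without overlap of the groups. Over the Bpifc promoter itself, chr10:86011851-86012202, a peak was listed in replicate 1 of labelled Hira KO alone, with 5.36.

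Cd4 had 5 regions, 2 of them in all 4 libraries and both outside the gene. The stronger, at chr6:124856923-124857618, also overlaps the neighbour P3h3 and had fold enrichments of 19.8 and 9.61 in labelled Hira KO, against 12.3 and 8.21 in labelled WT. The other, at chr6:124859731-124860131, had 8.39 and 7.21 in labelled Hira KO, against 7.50 and 4.27 in labelled WT. The groups overlapped in both. The region inside the gene, chr6:124879405-124879638, was listed in replicate 1 of labelled Hira KO alone, with 5.36.

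At 50 kb in place of 10 kb, 3 regions were listed in both libraries labelled Hira KO and in neither labelled WT. One lay 12.4 kb from Trpc6 with fold enrichments of 5.83 and 4.80, one 28.9 kb from Abcg3 with 3.50 and 4.46, and one 25.0 kb from Cd4 with 4.90 and 4.12. All 6 of these values were below the median fold enrichment of their lists, 6.53 and 7.55.

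**Figure D5:**
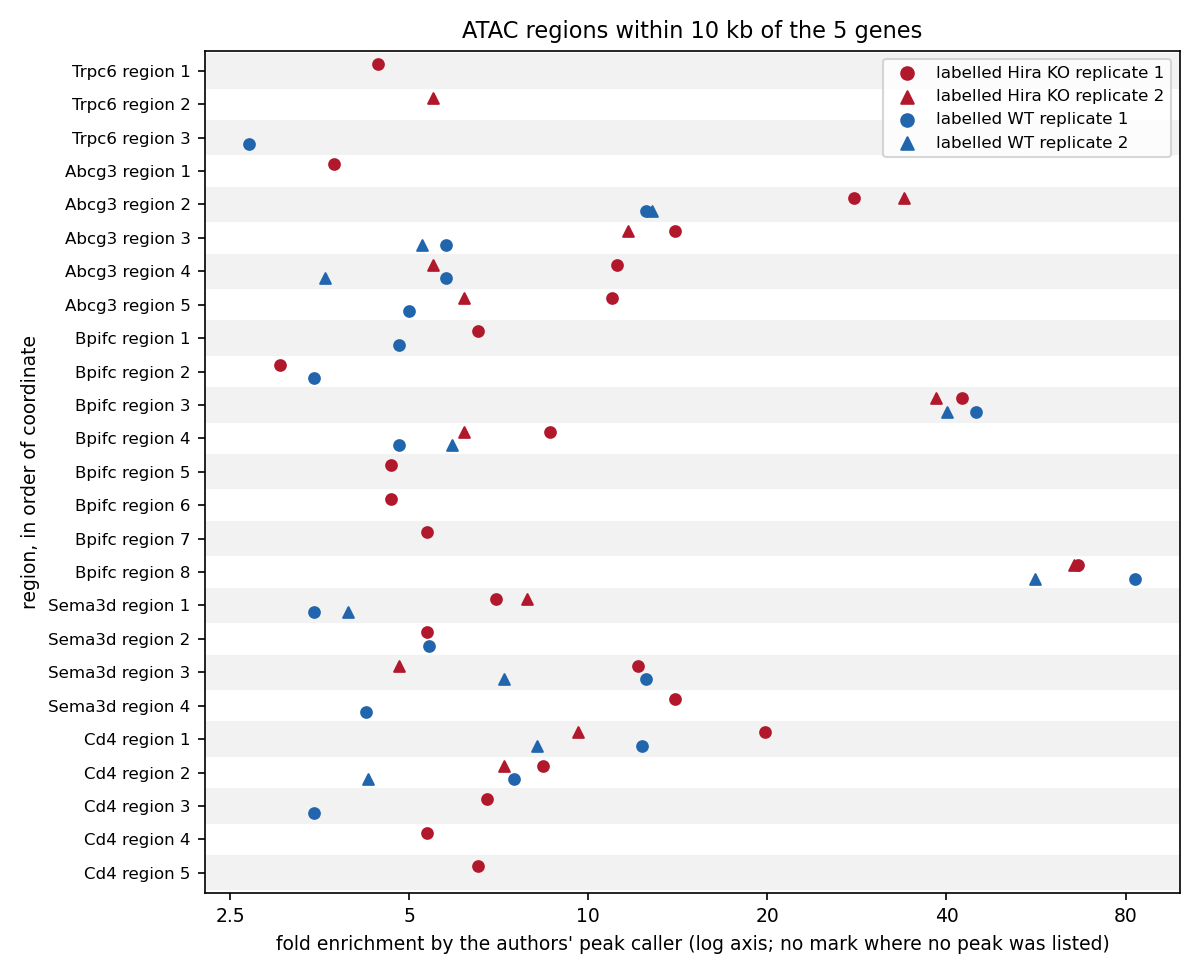
Fold enrichment by the authors' peak caller (x axis, log) of the 25 ATAC regions within 10 kb of the 5 genes (y axis, in order of coordinate), with circles for replicate 1 and triangles for replicate 2, red for labelled Hira KO and blue for labelled WT. Both red marks lie right of both blue marks in 4 of the 10 shared regions (24.9% of all shared regions), 2 in Abcg3, 1 in Bpifc and 1 at the start of Sema3d, and the strong regions of Bpifc, from 38.4 to 83.1, overlap between the groups.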

How the data were processed

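Gene-level RNA tables were used as deposited, and ATAC peak lists after the removal of lines described above. Groups and replicate numbers were taken from titles. Amplification used a NuGEN kit and library preparation a Nextera XT kit, per the labels' protocols. Strand is not stated there, so a gene's reads may include those of antisense transcripts. STAR 2.5.3a, RSEM 1.3.0, MACS2 2.1.1, Bowtie2 2.2.9, Trim Galore 0.4.5 and the build GRCm38 are named, without roles, per the submitters' processing notes.

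The authors' expected counts are estimates per gene without normalization, per the file headers, and were rounded to whole numbers. TPM, also deposited by the authors, sets counts per length to one total a library. Effective lengths and posterior SDs of the counts are the authors' values too, per the file headers. Each peak carries the authors' fold enrichment, a ratio to local background, with a -log10 p-value and a -log10 q-value deposited by the authors. Symbols were matched for 45143 of 45706 gene IDs. Gene coordinates are those of RefSeq's GRCm38.p6 table.

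Counts were tested in edgeR 4.0.16 (R 4.3.3; TMM, filterByExpr, robust quasi-likelihood F test, genotype as the only term), with Benjamini-Hochberg adjustment over 16258 genes and calls below 0.05; the biological coefficient of variation was 27.8%. DESeq2 1.42.0 and limma 3.58.1 on log2(TPM + 1) and log2(TPM + 0.1) served as alternatives. The fitting step was also run on simulated counts, and the merging step on made-up peaks with identical coordinates wherever libraries shared them. Peaks that overlap in part were not tried there, and no result above rests on these runs. Peaks overlapping by at least 1 bp were merged into regions; a region within 10 kb of a gene body counted as near it, and the labels do not say whether cut sites were shifted for the transposase. The depth of 16.6 to 19.8 M counts limits genes of few counts most.

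The 5 genes and all gene lists were chosen with earlier results of these data known. Genes were named by a rule: Hira, the 5 genes, the 10 called genes of largest increase whose average log2 CPM reached 3, the called and the 2 most abundant genes of each list, called and nearest neighbours, and the 3 genes nearest in pattern; other names are marked in the text or are markers, and some genes that meet the rule are not reported here. Beyond the T cell, dendritic, endothelial and stem cell markers, lists for B, plasma, NK, macrophage, erythroid and mesenchymal cells were counted.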

Additional observations from a re-analysis of the deposited data

How the results depend on the processing

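The log2 fold changes of the 5 genes stayed above 0 in labelled Hira KO under all 12 RNA alternatives. Called were 0 of them without either library labelled WT, 4 with the replicate block (not Trpc6), 4 with limma at either pseudocount (not Cd4), and 5 otherwise. Of their 60 recomputed log2 fold changes 12 moved by more than the SD between replicates, and of 96 recomputed counts of calls or regions 56 differed over 1.5 times from the reported count. The counts of called genes were the least stable. Over all genes 214 were called higher and 78 lower; DESeq2 called 923 and 575, the fit without a low-count filter 1206 and 1017, limma on log2(TPM + 1) 392 and 262, and limma on log2(TPM + 0.1) 376 and 246. With 1 library left out, calls ran from 1 to 1657 higher and from 1 to 1888 lower. They fell to 3 higher and 1 lower without replicate 1 of labelled WT and to 1 and 1 without replicate 2 of labelled WT, and were 665 and 525 without replicate 2 of labelled Hira KO. With the replicate number as a block, the counts were 368 higher and 169 lower over all genes and 5 higher and 2 lower in the pathway lists; libraries of the same number deviated with a correlation of 0.0609, and no label says that a number pairs libraries.

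The pathway calls, 4 higher and 1 lower, became 9 and 6 with DESeq2, 11 and 6 without a filter, 3 lower with limma on log2(TPM + 1), and 2 higher and 3 lower with limma on log2(TPM + 0.1); with 1 library left out they ran from 0 to 18 higher and from 0 to 11 lower. The neighbour calls, 2 higher and 0 lower, became 7 and 3 with DESeq2, 7 and 3 without a filter, and 4 and 1 with limma at either pseudocount, and ran from 0 to 6 higher and from 0 to 5 lower with 1 library left out. The cause was not tested.

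Limma on log2(TPM + 1) understates changes of low genes by construction. There the log2 fold change was 2.07 for Trpc6, 1.94 for Abcg3, 1.83 for Sema3d and 1.23 for Cd4; with log2(TPM + 0.1) it was 3.63 for Sema3d and 1.71 for Cd4, and with a minimum count of 50 it was 1.81 for Cd4. With 1 library left out, Trpc6 ran from 2.48 to 4.06, Abcg3 from 2.32 to 3.36, Bpifc from 2.27 to 3.25, Sema3d from 4.23 to 4.71 and Cd4 from 1.73 to 1.79. Regions of the pair labelled Hira KO near the 5 genes, 0 at 10 kb, were 3 at 50 kb and 1 with -log10 q of at least 10. With 1 ATAC library left out they ran from 0 to 7, and those of the pair labelled WT from 0 to 1. Where the library left out was of the same group, 1 library stood for the pair. The 7, found without replicate 2 of labelled Hira KO, were thus regions listed in replicate 1 of labelled Hira KO alone. Regions in all libraries, 10, were 24 at 50 kb and 4 with -log10 q of at least 10, and ran from 10 to 11 with 1 library left out. With 2 libraries a group, few counts limit Sema3d in labelled WT most.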

Other observations

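Marker lists of other cell types, several of which carry the lineage markers that the LSK gate is meant to remove, were counted in the same edgeR fit, where 1.32% of genes were called higher and 0.48% lower in labelled Hira KO. Of 7 plasma cell markers tested, 1 was called higher, Jchain, the joining chain of secreted antibodies, and 0 lower, and the list summed to 256 and 153 TPM in labelled Hira KO, against 79.0 and 41.8 TPM in labelled WT. Jchain alone made up 202 and 98.2 TPM in labelled Hira KO, against 14.4 and 6.08 TPM in labelled WT. Without it the list summed to 53.2 and 55.0 TPM in labelled Hira KO, against 64.7 and 35.7 TPM in labelled WT, and the groups overlapped. Xbp1 made up 37.5 and 43.1 TPM of that sum in labelled Hira KO, against 50.1 and 26.3 TPM in labelled WT. Of the 7 tested markers, Jchain included, 6 had a log2 fold change above 0, with a median of 1.14. At an unadjusted p under 0.05, 4 were higher (Jchain, Prdm1, Irf4 and Derl3) and 1 lower (Mzb1), beside 12.2% and 10.6% of all genes. Of 11 B cell markers 0 were called higher and 1 lower, Igll1, a chain of the pre-B cell receptor, with sums of 159 and 99.4 TPM in labelled Hira KO, against 306 and 207 TPM in labelled WT. The B cell sums did not overlap between the groups. At an unadjusted p under 0.05, 1 B cell marker was higher and 6 were lower, again beside 12.2% and 10.6% of all genes. The median log2 fold change of the 11 was -0.82.

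Of 10 macrophage and monocyte markers tested, 0 were called higher and 1 lower, Ly6c2, with sums of 306 and 182 TPM in labelled Hira KO, against 534 and 314 TPM in labelled WT. Of 10 erythroid markers 0 were called higher and 1 lower, Tspo2, with sums of 86.5 and 61.0 TPM in labelled Hira KO, against 176 and 151 TPM in labelled WT. At an unadjusted p under 0.05, 0 erythroid markers were higher and 3 lower, and 0 macrophage markers were higher and 1 lower. Over all genes these shares were 12.2% and 10.6%. The median log2 fold change was -1.21 in the erythroid list and -0.19 in the macrophage list. The erythroid sums did not overlap between the groups, and neither did the macrophage sums, which came nearest at 306 TPM in labelled Hira KO and 314 TPM in labelled WT.

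Of 6 NK and innate lymphoid markers and 8 mesenchymal markers tested, 0 were called in edgeR in either direction; at an unadjusted p under 0.05 each list had 1 higher and 1 lower, beside 12.2% of all genes higher and 10.6% lower. The NK list summed to 23.5 and 19.7 TPM in labelled Hira KO, against 22.9 and 17.3 TPM in labelled WT, and the mesenchymal list to 118 and 122 TPM in labelled Hira KO, against 152 and 96.2 TPM in labelled WT. Both overlapped between the groups. The part of any of these lists in the levels of Trpc6, Abcg3, Bpifc, Sema3d and Cd4 was not tested.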
